A study of Mus musculus with 4 samples.

Results

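The proteins that show peptides to T cells are built from 2 gene systems, MHC class I and MHC class II. Described here are 10 of their genes, out of the 55357 genes measured, across the immune, vascular, stem and hormone-producing cells of the mouse pituitary. The members were chosen by name: the class I heavy chains H2-K1 and H2-D1 and their shared light chain B2m, the peptide-supply genes Tap1, Psmb8 and Psmb9, the class II chains H2-Aa, H2-Ab1 and H2-Eb1, and Cd74, the class II invariant chain. All 10 were measured and passed the count minimum in every class compared below. The data are single-cell 3′ RNA libraries of whole pituitaries from male mice, 4 weeks old at the start, fed for 12 weeks either a high-fat diet (HFD, 2 libraries) or a normal diet (ND, 2 libraries), with 3 pituitaries pooled in each library. The labels also name the cell line Lbt2 and the cell type gonadotroph for every library, whereas 962 of the 36207 cells kept, or 2.66%, fell in the gonadotroph-like class. The deposited matrix joins the libraries, and its barcodes carry 4 suffixes (here sets 1 to 4) that no label ties to a library or a diet. No comparison of HFD with ND was therefore made. The 4 sets serve to show the spread of a value and whether a ratio or an order holds in each of them, not as diet groups.

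A class I molecule is a heavy chain held by B2m that carries a short peptide to the surface of almost any cell, where CD8 T cells and natural killer (NK) cells read it. The peptides are cut by the proteasome, in which Psmb8 and Psmb9 can replace the standard subunits Psmb5 and Psmb6 to form the immunoproteasome, and Tap1 is one chain of the pump that brings them into the endoplasmic reticulum. A class II molecule is an alpha chain (H2-Aa) paired with a beta chain (H2-Ab1), H2-Eb1 is the beta chain of another such pair, and Cd74 blocks the groove until the complex reaches the compartments where it is loaded. Class II is best known from dendritic cells, macrophages and B cells, and interferon gamma is known to raise both systems in many other cells. In the anterior pituitary the non-hormone epithelial cells include stem cells and folliculostellate cells, star-shaped cells that form a network among the hormone cells.

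The upstream regions of the members are shown because those of the 2 heavy chains share a largely identical stretch and because members of both systems share short motifs. RefSeq windows (build GRCm38.p6) were matched for 8 of the 10 members, the exceptions being H2-Ab1 and Cd74. Each line below gives the 200 bases directly upstream of a transcription start, 5′ to 3′ on the strand of the gene, and for Psmb9 and Tap1, which lie head to head, the 225 bases between their starts on the strand of Tap1. Capitals mark matches to the searched motifs on either strand.
H2-K1, chr17:34000348-34000547, minus strand: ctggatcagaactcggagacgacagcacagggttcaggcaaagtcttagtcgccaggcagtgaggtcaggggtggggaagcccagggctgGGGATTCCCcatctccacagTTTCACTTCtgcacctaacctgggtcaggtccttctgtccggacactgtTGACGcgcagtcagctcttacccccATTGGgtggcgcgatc
H2-D1, chr17:35262894-35263093, plus strand: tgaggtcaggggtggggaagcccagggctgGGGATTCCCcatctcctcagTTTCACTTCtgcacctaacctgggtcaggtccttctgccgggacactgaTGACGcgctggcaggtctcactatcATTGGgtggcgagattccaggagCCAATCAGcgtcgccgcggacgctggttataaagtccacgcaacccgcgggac
B2m, chr2:122147487-122147686, plus strand: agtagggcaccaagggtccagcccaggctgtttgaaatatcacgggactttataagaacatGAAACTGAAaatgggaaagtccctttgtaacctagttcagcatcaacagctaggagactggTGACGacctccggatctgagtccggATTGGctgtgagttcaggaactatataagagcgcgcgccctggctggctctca
Psmb9 and Tap1, chr17:34187331-34187555, plus strand: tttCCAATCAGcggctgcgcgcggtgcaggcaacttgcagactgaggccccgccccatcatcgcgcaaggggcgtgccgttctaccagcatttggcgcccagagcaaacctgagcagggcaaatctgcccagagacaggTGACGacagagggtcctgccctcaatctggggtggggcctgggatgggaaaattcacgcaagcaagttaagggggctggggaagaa
H2-Aa, chr17:34287824-34288023, minus strand: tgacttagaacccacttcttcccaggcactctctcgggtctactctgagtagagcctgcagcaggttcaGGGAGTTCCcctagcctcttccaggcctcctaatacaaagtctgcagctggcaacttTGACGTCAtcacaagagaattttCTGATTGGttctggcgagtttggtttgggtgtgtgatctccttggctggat
H2-Eb1, chr17:34305667-34305866, plus strand: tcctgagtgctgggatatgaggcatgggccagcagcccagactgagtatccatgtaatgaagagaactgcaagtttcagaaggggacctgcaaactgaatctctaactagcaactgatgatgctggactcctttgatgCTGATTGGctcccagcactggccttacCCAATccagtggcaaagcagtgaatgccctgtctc

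The windows searched were 250 bases long, and 32851 such windows in the RefSeq table gave the background. The interferon response core GAAANNGAA was found upstream of B2m and is present in 7.13% of all windows. The same element read in the other phase, GAANNGAAA, a motif added after the sequences had been seen, was found upstream of H2-K1 and H2-D1 and is present in 6.31% of windows. An NF-kB site, GGGANTNCC, lay upstream of H2-K1, H2-D1 and H2-Aa, against 3.36% of windows. The Y box CTGATTGG, one of the class II promoter elements, lay upstream of H2-Aa, H2-Eb1, H2-D1, Psmb9 and Tap1, against 3.83% of windows. In H2-Aa it began 51 bases and in H2-Eb1 62 bases upstream of the start. The Y box overlaps the CCAAT box (CCAAT on the other strand), which was found in 7 of the 8 matched members and in 33.85% of windows. TGACG, the core of the class II X2 element, was found in 6 of the 8 members, all but Psmb8 and H2-Eb1, against 17.8% of windows. None of these motifs was found in the window of Psmb8. Psmb9 and Tap1 share 1 region between their starts, so their matches are the same letters. The best-matching stretch of the H2-K1 and H2-D1 promoter sequences, which may run past the start, was identical at 206 of 227 aligned bases, or 90.7%. A match describes the letters and shows no binding.

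The matrix held 40406 barcodes and 346690898 unique molecular identifiers (UMIs, each standing for 1 captured transcript), from 81621358 to 92665029 per set. After filtering and removal of predicted doublets, 8790 to 9198 cells per set remained, with medians of 6941.5 to 7883 UMIs per cell. Of the barcode sequences, 156 occurred in more than 1 set. Cells were grouped into 32 clusters without using any gene of the pathway, and clusters were named only from other marker genes, so the class names are inferred and carry the ending "-like". Besides the hormone classes, 7 classes reached 20 cells in each of the 4 sets, macrophage or microglia-like (1590 cells), T cell-like (351), NK cell-like (125), B cell-like (136), endothelial-like (910), fibroblast-like (435) and stem or folliculostellate-like (2025, called stem-like below). The 6 hormone classes held 13287 somatotroph-like, 8229 lactotroph-like, 2540 corticotroph-like, 962 gonadotroph-like, 732 melanotroph-like and 705 thyrotroph-like cells. Smaller classes were dendritic-like (71 cells), monocyte-like (54), neutrophil-like (33), pituicyte-like (249) and proliferating (81), and 3692 cells stayed unnamed and enter no class value. The defining markers were at least 2 times higher in their class than in other cells, with few exceptions. These were 1 of 8 stem-like markers, 1 of 5 somatotroph-like markers and Ly6g, which was at 0 in neutrophil-like cells. Clusters were named from these same markers, so their high levels are no separate check of the names.

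Levels are given as counts per 1000000 (CPM) of the summed UMIs of a class, so they do not separate the share of cells that express a gene from the amount per cell. Each UMI tags 1 end of a transcript, so the count does not scale with gene length, but capture can still differ between genes. The 95% Poisson and binomial intervals cover counting error only. A gene was called higher in a class when its CPM was at least 2 times that of the 6 hormone classes summed in each of the 4 sets. Since each set has only 1 value per class, no p-value is given, and classes are said to lie apart only where their ranges over the 4 sets do not overlap.

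**Figure D1:**
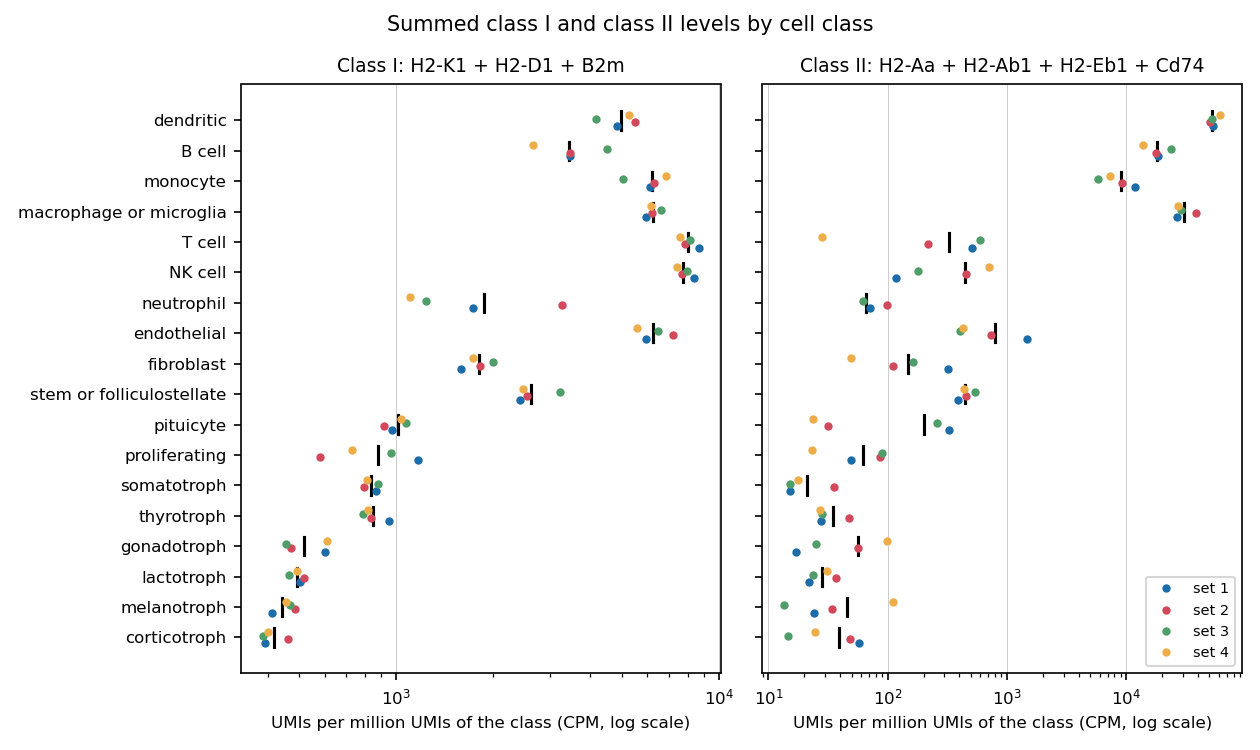
Summed CPM (log scale) of H2-K1, H2-D1 and B2m (class I) and of H2-Aa, H2-Ab1, H2-Eb1 and Cd74 (class II) in the 18 classes, with black bars for the whole class and coloured points for the 4 sets, values of 0 not drawn. Class I lies between 419 CPM in corticotroph-like and 8036 CPM in T cell-like cells, and class II between 20.9 CPM in somatotroph-like and 52857 CPM in dendritic-like cells.

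Class I transcripts were found in every class, and lymphocytes other than B cells had the most of them. The sum of H2-K1, H2-D1 and B2m was 8663, 7830, 8141 and 7566 CPM in sets 1 to 4 of T cell-like cells. In NK cell-like cells it was 8383, 7687, 7942 and 7406 CPM. The ranges of these 2 classes overlapped, although T cell-like cells were slightly higher in each set. Both lay above the next pair, endothelial-like cells with 5924, 7216, 6474 and 5575 CPM and macrophage or microglia-like cells with 5961, 6223, 6618 and 6170 CPM, which overlapped each other. B cell-like cells (3441 CPM, sets 2650 to 4507) and stem-like cells (2618 CPM, sets 2420 to 3209) followed and overlapped. Fibroblast-like cells (1803 CPM, sets 1585 to 2001) stood apart on both sides of the order. All 6 hormone classes lay below them, from 846 CPM in thyrotroph-like to 419 CPM in corticotroph-like cells. The lead of T cell-like cells depended on how cells were named: with classes assigned by marker score per cell, they had 1137 CPM of H2-K1, 722 CPM of H2-D1 and 1153 CPM of B2m, while B2m was 2578 CPM in macrophage or microglia-like and 1592 CPM in NK cell-like cells.

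Among the single class I genes, H2-K1 was at 3292 CPM in T cell-like cells (3403, 3216, 3485 and 3104 CPM in the 4 sets) and at 220 CPM in the hormone classes together (195, 201, 248 and 234 CPM), a ratio of 14.99. H2-D1 was 13.8 times and B2m 8.23 times the hormone level in the same cells. These and the later ratios to the hormone classes count hormone transcripts in the totals, 44.4% of UMIs in somatotroph-like and 22.2% in lactotroph-like cells. Counting them lowers the hormone level and raises the ratios. In endothelial-like cells the ratios were 8.39 for H2-K1, 12.0 for H2-D1 and 8.06 for B2m, with B2m at 2432, 3145, 2652 and 2215 CPM in the 4 sets. Stem-like cells had 1300 CPM of H2-K1 (1145, 1270, 1714 and 1204 CPM) and 739 CPM of H2-D1 (693, 736, 883 and 692 CPM), 5.92 and 4.85 times the hormone classes. Their B2m, at 578 CPM (583, 539, 612 and 584 CPM), was 1.80 times the hormone level and was not called. The stem-like class therefore had both heavy chains well above the hormone cells in each set. Its B2m range overlapped that of somatotroph-like cells (399 to 542 CPM over the sets), although stem-like cells were higher in each set. This scale counts the hormone transcripts. With the hormone genes left out of the totals, B2m in somatotroph-like cells was 831 CPM. The stem-like level on that scale is not given here.

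The balance between the 2 heavy chains also differed between classes. H2-K1 made up 63.7% of the UMIs of H2-K1 and H2-D1 in stem-like, 61.5% in somatotroph-like and 61.1% in T cell-like cells. In macrophage or microglia-like cells the share was 44.5% (42.8% to 45.5% over the sets), and in the 33 neutrophil-like cells it was 15.6%. These shares compare classes and not the true amounts of the 2 proteins. In the last 400 bases of their annotated transcripts (GENCODE vM21), 5.3% of the 60-base words of H2-K1 and 4.0% of those of H2-D1 also occur in other genes, so a small part of their reads could have been assigned elsewhere or dropped.

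Of the 10 members, 7 were called higher in T cell-like cells, 9 in NK cell-like, 8 in B cell-like, 10 in macrophage or microglia-like, 10 in endothelial-like, 4 in fibroblast-like and 6 in stem-like cells. Across all genes tested, the same rule called 7.52% in T cell-like, 5.46% in NK cell-like, 3.94% in B cell-like, 10.2% in macrophage or microglia-like, 12.2% in endothelial-like, 8.58% in fibroblast-like and 12.0% in stem-like cells. H2-K1 and H2-D1 were called in all 7 classes. In fibroblast-like cells the other calls were Psmb9 and Cd74. The median log2 ratio of the 10 members, computed on CPM + 10, ranged from 1.17 in fibroblast-like to 3.32 in macrophage or microglia-like cells, against -0.06 to 0.00 for all genes tested in the same classes. The fibroblast-like count was 7 without set 4, 8 when cells were assigned by marker score and 1 when hormone genes were left out of the library sizes. The B cell-like count was 4 with classes assigned by marker score. With hormone genes left out of the library sizes, the B cell-like count was 7 and the T cell-like count 6.

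**Figure D2:**
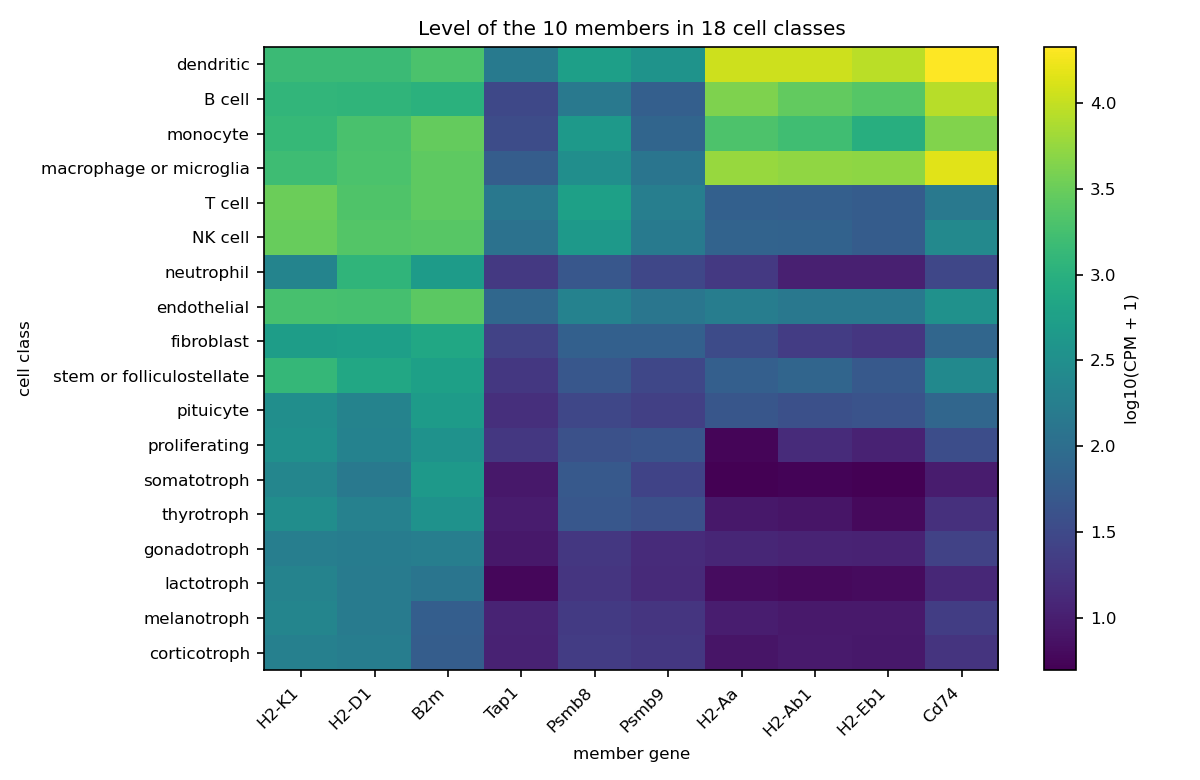
Level of each of the 10 members (columns) in the 18 classes (rows), drawn as log10(CPM + 1). The class II columns are brightest, that is highest, in the dendritic-like, macrophage or microglia-like, B cell-like and monocyte-like rows, whereas class I transcripts are present in every row.

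Hormone cells were closer to each other in their heavy chains than in B2m. Over the 6 hormone classes the highest level of H2-K1 was 1.68 times the lowest, and for H2-D1 the factor was 1.35. For B2m it was 8.12. Somatotroph-like cells had 542, 472, 442 and 399 CPM of B2m in the 4 sets, thyrotroph-like cells 377, 392, 318 and 318 CPM, and gonadotroph-like cells 191, 162, 143 and 221 CPM. Lactotroph-like cells had 135, 123, 115 and 137 CPM, melanotroph-like cells 51.2, 67.7, 59.7 and 66.5 CPM, and corticotroph-like cells 52.5, 59.7, 51.6 and 62.2 CPM. The first 4 of these classes did not overlap with one another, and the last 2 overlapped. Hormone transcripts took 44.4% of the UMIs of somatotroph-like cells and 7.94% of those of corticotroph-like cells, which lowers the CPM of every other gene in the former. With the hormone genes left out of the totals, B2m was 831 CPM in somatotroph-like, 416 CPM in thyrotroph-like and 61.9 CPM in corticotroph-like cells, so the gap between the extremes was wider. H2-K1 was then 414 CPM in somatotroph-like and 201 CPM in gonadotroph-like cells, further apart than with the hormone genes counted. For H2-D1 the order changed: somatotroph-like cells were lowest at 144 CPM with the hormone genes counted and highest at 259 CPM without them, ahead of thyrotroph-like cells at 227 CPM.

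**Figure D3:**
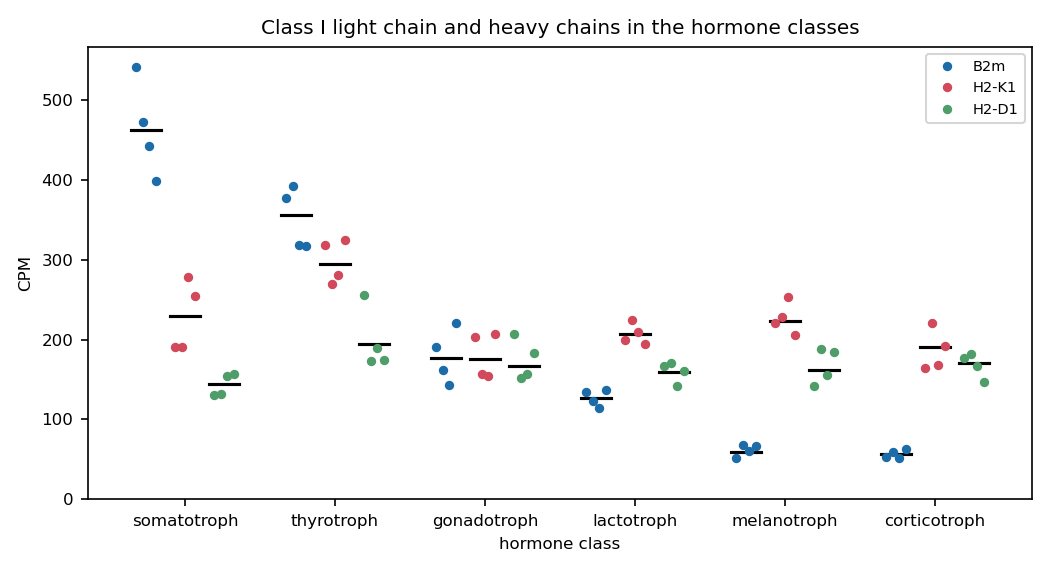
CPM of B2m, H2-K1 and H2-D1 in the 6 hormone classes, 1 point per set. B2m falls from 462 CPM in somatotroph-like to 57.0 CPM in corticotroph-like cells, whereas H2-K1 stays between 175 and 295 CPM and H2-D1 between 144 and 194 CPM.

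Droplets also take up free RNA from other cells. When a free RNA profile, taken from 1765 unnamed barcodes with fewer than 1500 UMIs, was subtracted, B2m fell to 7.19 CPM in corticotroph-like and 7.71 CPM in melanotroph-like cells. The profile was chosen after the data had been seen, and how much of the B2m counts in these 2 classes was free RNA was not measured directly.

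The genes that supply peptides to class I were also highest in T cell-like and NK cell-like cells among the 7 classes. Tap1 was at 118, 121, 149 and 179 CPM in T cell-like cells and at 7.19 CPM in the hormone classes together, a ratio of 19.8, the largest of any class I or supply member in that class. NK cell-like (114 CPM), endothelial-like (78.6 CPM) and macrophage or microglia-like cells (58.0 CPM) followed, and all 3 supply genes were called in these 4 classes. With classes assigned by marker score, T cell-like cells had 49.8 CPM of Tap1, 199 CPM of Psmb8 and 72.3 CPM of Psmb9, below the 68.7, 296 and 96.6 CPM of NK cell-like cells. Psmb8 was at 471, 579, 643 and 580 CPM in T cell-like, 310 CPM in macrophage or microglia-like and 202 CPM in endothelial-like cells, against 37.0 CPM in the hormone classes. In B cell-like cells only Psmb8 (144 CPM) was called, and Tap1 at 28.9 CPM and Psmb9 at 61.4 CPM rested on few counts. None of the 3 was called in stem-like cells, in which Tap1 was 18.5, Psmb8 46.9 and Psmb9 28.2 CPM. The calls in stem-like cells thus covered the heavy chains and none of the supply genes. The dendritic-like cells, too few for the call rule, had 150 CPM of Tap1, 560 CPM of Psmb8 and 363 CPM of Psmb9.

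Since each inducible subunit replaces a standard one, the share of the inducible transcript in a pair is a measure within a class that the library size does not touch. Psmb8 made up 89.8% of the UMIs of Psmb8 and Psmb5 in T cell-like cells (95% interval 86.8% to 92.4%), 83.3% in macrophage or microglia-like, 81.5% in NK cell-like and 71.9% in endothelial-like cells. It was 39.4% in stem-like and 38.7% in fibroblast-like cells. Among hormone cells the share was 48.8% in somatotroph-like cells (46.5%, 49.6%, 50.8% and 48.3% in the 4 sets), 35.8% in thyrotroph-like, 19.01% in corticotroph-like, 16.5% in lactotroph-like, 15.1% in melanotroph-like and 11.8% in gonadotroph-like cells. Somatotroph-like cells thus lay above the stem-like range of 34.0% to 45.8%, and well above the lactotroph-like range of 14.7% to 18.5%. Psmb9 against Psmb6 gave lower shares, 61.2% in T cell-like, 48.4% in endothelial-like, 46.8% in macrophage or microglia-like, 21.2% in thyrotroph-like, 19.1% in somatotroph-like and 5.73% in gonadotroph-like cells. For Psmb10 against Psmb7, the other such pair, the shares were 73.6% in T cell-like, 57.0% in endothelial-like, 45.1% in somatotroph-like and 24.1% in lactotroph-like cells. The standard subunits Psmb5, Psmb6 and Psmb7 were called in none of the 7 classes.

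**Figure D4:**
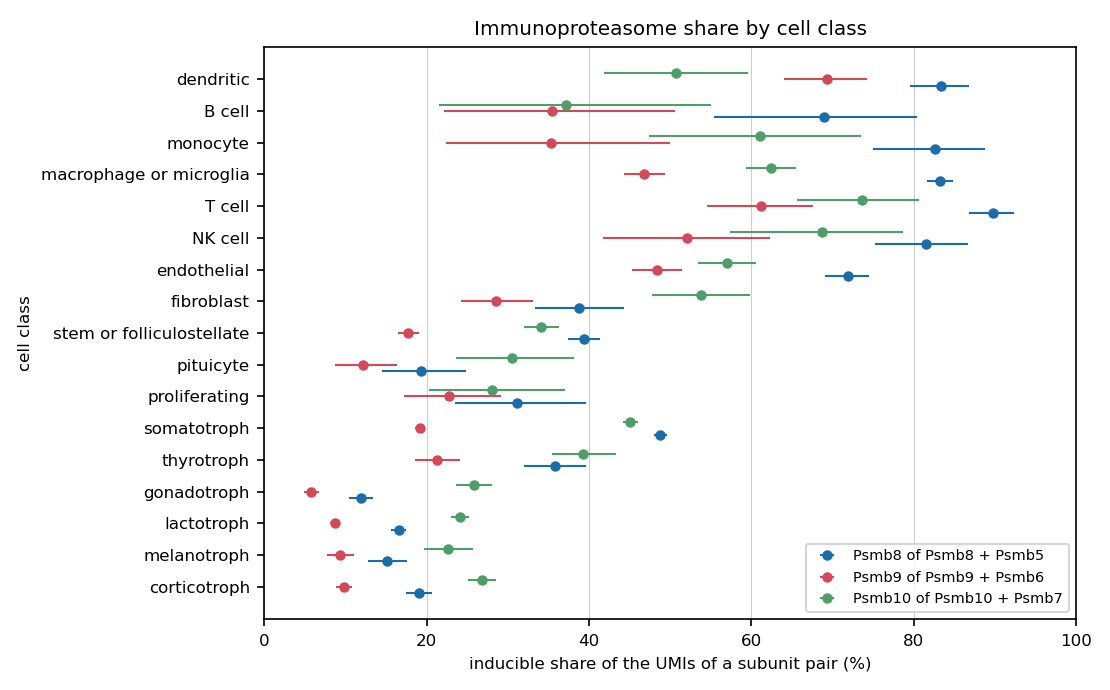
Share of the inducible subunit in 3 pairs (Psmb8 with Psmb5, Psmb9 with Psmb6, Psmb10 with Psmb7) in percent of the pair's UMIs for 17 classes, with 95% binomial intervals and the neutrophil-like class left out for its few counts. Immune and endothelial-like classes have the highest shares of Psmb8, and somatotroph-like cells stand above the other hormone classes in that pair at 48.8%.

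Other genes of the class I pathway, from lists of 8 further heavy chains, 7 loading factors and 4 immunoproteasome partners, were counted by the same rule. For these and all later lists, the background is the share of all genes tested, given above for each class. Of the further heavy chains, 7 of 8 were called in T cell-like, 6 in endothelial-like, 5 in macrophage or microglia-like, 5 in NK cell-like, 4 in fibroblast-like, 3 in B cell-like and 2 in stem-like cells. H2-Q7, a class Ib heavy chain, was called in all 7 classes, with 1086 CPM in NK cell-like, 368 CPM in endothelial-like and 75.6 CPM in stem-like cells against 2.88 CPM in the hormone classes. Of the 380 60-base words at the end of its transcripts, 0 occur in other genes. H2-T23, which encodes the heavy chain Qa-1 that NK receptors read, was at 153 CPM in endothelial-like and 13.9 CPM in hormone cells. H2-Q4 was called in T cell-like and endothelial-like cells only, at 206 and 203 CPM against 72.6 CPM. For H2-Q4 and H2-T23, 31.4% and 28.7% of the 60-base words at the transcript ends occur in other genes, and their levels are uncertain. Loading factors moved little: 2 of 7 were called in T cell-like cells, 1 each in NK cell-like, macrophage or microglia-like and endothelial-like cells and none in the other 3 classes. Tap2, the partner of Tap1, was at 68.8 CPM in endothelial-like, 59.0 CPM in T cell-like and 21.9 CPM in hormone cells. Tapbp, the tapasin that bridges class I to the pump, was at 207 CPM in macrophage or microglia-like cells, 217 CPM in thyrotroph-like cells and 91.4 CPM in the hormone classes together. Its relative Tapbpl was called in T cell-like and NK cell-like cells, at 119 and 126 CPM against 26.9 CPM. Of the partners, Psme1, a proteasome activator, and Psmb10 were called in T cell-like, NK cell-like and macrophage or microglia-like cells. Psme1 stood at 364 CPM in T cell-like and 106 CPM in hormone cells.

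Class II transcripts were concentrated in the antigen-presenting cells. The sum of the 4 members was 52857 CPM in dendritic-like cells (sets 50808 to 61757), 30814 CPM in macrophage or microglia-like cells (26642, 38473, 28869 and 27429 CPM in the 4 sets) and 18102 CPM in B cell-like cells (18556, 17736, 23813 and 13994 CPM). These compare with 20.9, 39.2, 18.01 and 28.4 CPM in the hormone classes together. Macrophage or microglia-like and B cell-like cells did not overlap, and both were far from every other class with at least 20 cells in each set. Monocyte-like cells had 9049 CPM. Cd74 alone reached 21259 CPM in dendritic-like, 14502 CPM in macrophage or microglia-like and 8760 CPM in B cell-like cells, against 11.2 CPM in hormone cells. With classes assigned by marker score, B cell-like cells had 440 CPM of Cd74 and 213 CPM of H2-Aa, next to 401 CPM of Cd74 in endothelial-like and in NK cell-like cells, so B cell-like cells no longer stood apart. H2-Aa stood at 5862 CPM, H2-Ab1 at 5249 CPM and H2-Eb1 at 5201 CPM in macrophage or microglia-like cells.

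All 136 B cell-like and all 71 dendritic-like cells held at least 1 class II UMI. Of the macrophage or microglia-like cells 85.3% did, and their median was 246 class II UMIs per 10000, with quartiles of 9.12 and 589. These quartiles lie far apart, and the clusters within the class are described next.

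Of the 3 clusters that formed the macrophage or microglia-like class, 2 of ordinary depth differed in class II and hardly in class I. The cluster of 977 cells led, apart from the members, by Ms4a7, a gene of tissue and border macrophages, had 39878 CPM of class II (34045, 47487, 40097 and 35353 CPM in the 4 sets). The cluster of 265 cells led by Trem2 and Cx3cr1, genes high in microglia, had 1110 CPM (317, 2003, 618 and 1453 CPM). This pair was picked after its values were seen, and a cluster pair from the same cells is a description and no test. H2-Aa was 7666 against 153 CPM, H2-Ab1 6816 against 147 CPM, H2-Eb1 6726 against 120 CPM and Cd74 18671 against 688 CPM, ratios of 49.95, 46.3, 55.8 and 27.1. Heavy and light chains were level: H2-K1 was 1620 against 1601 CPM, H2-D1 1926 against 2196 CPM and B2m 2591 against 2812 CPM. Tap1 (56.9 against 67.5 CPM), Psmb8 (320 against 262 CPM) and Psmb9 (129 against 107 CPM) were also within a factor of 2. By the same rule, now against the second cluster, 4 of the 10 members were called, all of them class II, against 2.04% of the 11072 genes tested.

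**Figure D5:**
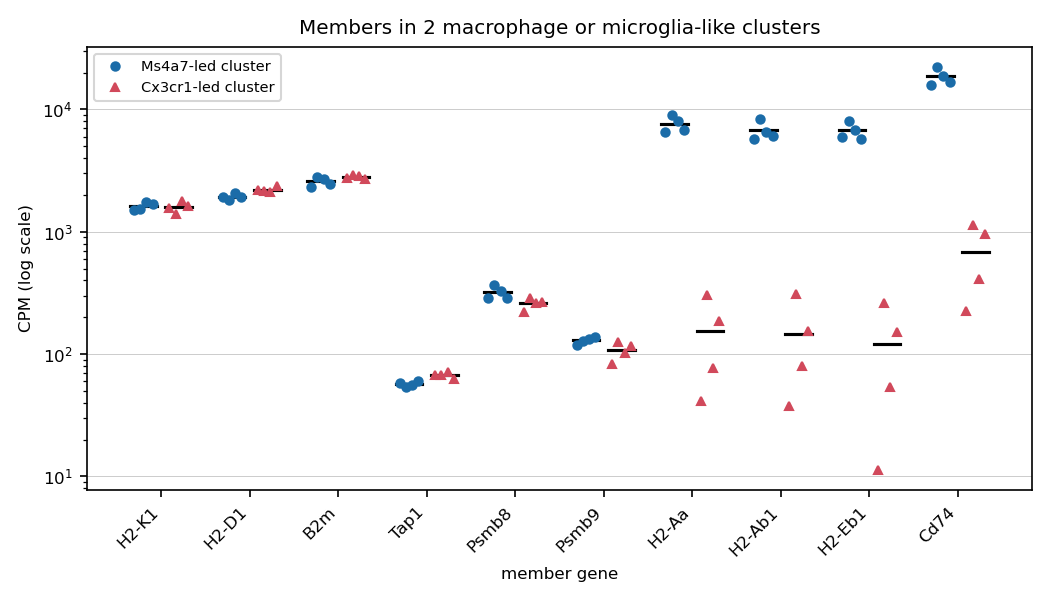
CPM (log scale) of the 10 members in the Ms4a7-led (circles) and Cx3cr1-led (triangles) macrophage or microglia-like clusters, 1 point per set. The 4 class II genes separate by ratios of 27.1 to 55.8 between the clusters and the 6 class I and supply genes differ by less than a factor of 2.

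Ciita, the master regulator of class II genes, held 495 UMIs in the Ms4a7-led cluster, or 115 CPM, and none in the other, where a count of 0 allows up to 2.30 CPM, so it was at least 49.96 times higher. H2-DMa and H2-DMb1, which together form the exchange factor that loads class II, were 519 against 178 CPM and 300 against 42.2 CPM. Both clusters had all 8 markers fixed for the class. The third cluster, 348 cells with a median of 744.5 UMIs, had 29830 CPM of class II.

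Stem-like cells were the named class outside the immune system with the largest share of class II-positive cells. In the 4 sets their class II sum was 390, 456, 540 and 440 CPM, and Cd74 was 216, 279, 305 and 270 CPM. Cd74 was 23.4, H2-Ab1 13.9, H2-Aa 11.9 and H2-Eb1 9.87 times the hormone level, and all 4 were called. At least 1 class II UMI was found in 69.5% of the stem-like cells (95% interval 67.5% to 71.5%, sets 68.5% to 70.9%) and in 16.7% of hormone cells (12.9% to 26.6% over the sets). The median depths were 7291 and 8354 UMIs. With each cell thinned to 1000 UMIs, which kept 1765 stem-like and 26033 hormone cells, the shares were 30.8% and 2.44%. At least 3 UMIs were found in 42.7% of stem-like and 0.801% of hormone cells. The top 1% of stem-like cells, 20 cells, held 16.1% of their class II UMIs, and the median cell had 2.32 class II UMIs per 10000.

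The make-up of the stem-like class II signal differed from that of the presenting cells. Cd74 made up 58.5% of it, with 55.4% to 61.3% over the sets. The share was 47.1% in macrophage or microglia-like, 48.4% in B cell-like, 40.2% in dendritic-like and 41.9% in hormone cells (40.2% to 45.6% over the sets). In the Cx3cr1-led cluster it was 62.0%. Markers of macrophages were low in the stem-like class: C1qa, C1qb, C1qc and Lyz2 summed to 27.8 CPM (from 17.5 to 33.4 CPM in single sets), against 18261 CPM in macrophage or microglia-like cells and 11.7 to 36.9 CPM in the hormone classes. After leaving out the 315 stem-like cells with a UMI of any of 7 other markers (these 4, Cd79a, Cd79b or Cd209a), class II stood at 457 CPM (370, 463, 558 and 471 CPM), against 448 CPM with them. Of the 231 stem-like cells with at least 10 class II UMIs, 57 held such a marker, and their median depth was 15346 UMIs.

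Endothelial-like cells also had all 4 class II members called, but their signal came from few cells. Class II summed to 1464, 736, 407 and 431 CPM in the 4 sets, and Cd74 to 681, 292, 140 and 190 CPM, so set 1 was the highest by a wide margin. Without set 1 Cd74 was 200 CPM in place of 344 CPM. At least 1 class II UMI was found in 37.7% of the cells (20.4% of 815 cells after thinning), and 9 cells, the top 1%, held 54.0% of the class II UMIs. The macrophage markers C1qa, C1qb, C1qc and Lyz2 summed to 339 CPM in this class (139 to 759 over the sets). Of the 43 cells with at least 10 class II UMIs, 34 held 1 of the 7 other markers. When the 138 cells with such a marker were left out, class II was 207, 277, 250 and 188 CPM in the 4 sets, or 230 CPM in place of 795 CPM, while class I was 6628 CPM in place of 6259 CPM. Cd74 was then 86.0 CPM, H2-Ab1 58.8, H2-Aa 48.4 and H2-Eb1 36.9 CPM, each still above the hormone classes, and set 1 was no longer the highest for Cd74.

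T cell-like and NK cell-like cells had class II levels that differed widely between sets. In T cell-like cells the sum was 512, 216, 597 and 28.3 CPM, 12.3% of the cells held a UMI, and 4 cells held 69.2% of the UMIs. The median depth of these cells was 1997 UMIs, and after thinning to 1000 UMIs the share was 7.47% of 345 cells, against 2.44% in hormone cells. Of the 4 members only H2-Eb1 was called. Leaving out the 29 cells with another marker lowered the sum from 324 to 69.8 CPM. NK cell-like cells had 118, 453, 178 and 713 CPM, with all but H2-Aa called, and 307 CPM without the 6 cells that held a marker. Fibroblast-like cells had 322, 112, 164 and 49.4 CPM, and 56.6 CPM without 44 such cells. Pituicyte-like cells summed to 202 CPM, of which 77.5% lay in 2 cells. Neutrophil-like cells had 66.3 CPM.

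Hormone classes had class II at 20.9 CPM in somatotroph-like, 27.9 CPM in lactotroph-like, 34.6 CPM in thyrotroph-like, 38.8 CPM in corticotroph-like, 45.8 CPM in melanotroph-like and 56.6 CPM in gonadotroph-like cells. These ranges over the sets overlapped between all neighbours in the order. The top 1% of hormone cells held 31.0% of the class II UMIs. Cd74 made up 46.4% of the class II UMIs of all kept cells. The share of hormone cells with a class II UMI serves here as the background.

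Of 11 further genes of the class II pathway, all 11 were called in macrophage or microglia-like cells, 9 of 10 tested in B cell-like, 4 of 8 in endothelial-like, 3 of 8 in fibroblast-like, 3 of 7 in stem-like, 2 of 7 in T cell-like and 1 of 8 in NK cell-like cells. Ctss, the cathepsin that trims the invariant chain, was at 3496 CPM in macrophage or microglia-like and 2.28 CPM in hormone cells. Lgmn, a lysosomal protease, was at 887 CPM in macrophage or microglia-like, 138 CPM in stem-like and 23.7 CPM in hormone cells. Ifi30, a lysosomal thiol reductase, was at 1137 CPM in dendritic-like, 260 CPM in macrophage or microglia-like and 19.03 CPM in hormone cells. H2-DMa and H2-DMb1, named here after their values were seen, were at 24.7 and 19.2 CPM in stem-like cells against 3.65 and 0.562 CPM in hormone cells. Ciita, also named after its values were seen, was at 258 CPM in dendritic-like, 134 CPM in B cell-like and 84.7 CPM in macrophage or microglia-like cells. In stem-like cells it was at 4.12 CPM (82 UMIs), in endothelial-like cells at 5.16 CPM (20 UMIs) and in hormone cells at 0.126 CPM (31 UMIs), and it was called in both of the former.

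The regulators of the 2 systems, 14 genes, were called 7 times in macrophage or microglia-like, 7 in endothelial-like, 3 each in B cell-like, T cell-like and stem-like and 2 each in NK cell-like and fibroblast-like cells. Across all genes tested, the rule called 10.2%, 12.2%, 3.94%, 7.52%, 12.0%, 5.46% and 8.58% in these classes, in that order. With 14 genes, the stem-like and fibroblast-like counts were not far from these shares. The median log2 ratio of the list, on CPM + 10, ran from 0.05 in fibroblast-like to 0.71 in macrophage or microglia-like cells. For all genes tested it was -0.06 to 0.00. Irf1, an interferon-regulated activator of class I genes, was at 600 CPM in endothelial-like and 488 CPM in stem-like cells, the latter between 245 and 947 CPM over the sets, and at 124 CPM in the hormone classes together, with 428 CPM in corticotroph-like cells. Irf2 was called in 4 classes and stood at 231 CPM in B cell-like against 44.0 CPM in hormone cells. Nlrc5, the class I counterpart of Ciita, named after its values were seen, was at 91.0 CPM in T cell-like, 18.9 CPM in macrophage or microglia-like and 11.3 CPM in endothelial-like cells against 0.334 CPM. Among 7 interferon receptors and kinases, 5 were called in T cell-like, 5 in NK cell-like and 5 in endothelial-like cells, 4 in macrophage or microglia-like, 3 in fibroblast-like, 3 in stem-like and 2 in B cell-like cells. Jak2 was at 55.1 CPM in stem-like against 18.2 CPM in hormone cells, and Ifnar1, a chain of the type I interferon receptor, at 200 CPM in T cell-like against 19.8 CPM. Ifng, the gene of interferon gamma itself, also named after its values were seen, was at 557 CPM in T cell-like and 277 CPM in NK cell-like cells and at 5.16 CPM or less in the endothelial-like, stem-like, macrophage or microglia-like and hormone cells.

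Genes that interferons are known to raise were most often high in endothelial-like cells, with 19 of 20 called. The counts were 17 of 20 in macrophage or microglia-like, 14 of 19 in T cell-like, 14 of 20 in fibroblast-like, 14 of 20 in stem-like, 2 of 19 in NK cell-like and 2 of 19 in B cell-like cells. The median log2 ratio of this list, on CPM + 10, was 2.73 in endothelial-like and 1.23 in stem-like cells, against -0.01 and 0.00 for all genes tested. Iigp1, an interferon-induced GTPase, was at 2245 CPM in endothelial-like cells (1540 to 2930 in the sets), 143 CPM in stem-like cells (between 60.004 and 218 over the sets) and 1.80 CPM in hormone cells. Gbp7, of a related family, was at 233 CPM in endothelial-like and 129 CPM in stem-like cells against 42.4 CPM. Cxcl10, a chemokine that draws T cells, was at 1067 CPM in macrophage or microglia-like and 1009 CPM in endothelial-like cells against 5.30 CPM. NK cell-like cells, next to T cell-like cells in class I, had 2 of these 19 genes called, in a class of 125 cells. Their median log2 ratio for the list was 0.85, against -0.04 for all genes tested. In B cell-like cells it was -0.06, against -0.05 for all genes tested.

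Genes outside the lists were ranked by how closely their level followed the members over the 17 named classes with at least 50 cells. For the class I sum the closest of 17176 genes were Wipf1 (Pearson r = 0.946), Sting1 (0.944), Mob1a (0.936), Ppp1r18 (0.935) and Casp8 (0.935). For the class II sum they were Cd83 (0.955), Ncf1 (0.943), Arl5c (0.936), Unc93b1 (0.935) and Tnfrsf13b (0.934). These values describe the classes of 1 matrix, which share libraries and chemistry, and were picked as the highest, so they carry no test.

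The 7 unnamed clusters lay within the span of the named classes. Their class I sum ran from 509 to 4003 CPM and their class II sum from 36.5 to 1780 CPM. Some had endothelial markers beside those of other classes and so stayed out of the endothelial-like class. Among them, a class II UMI was found in 54.6% of a cluster of 194 cells and in 84.8% of a cluster of 99 cells. Their median depths were 8652.5 and 16459 UMIs. The share in the endothelial-like class was 37.7% at a median of 2825 UMIs.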

How the data were processed

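Single-cell 3′ RNA was measured in 4 libraries of whole mouse pituitary. The deposited file holds UMI counts per gene and barcode, not normalized, made with Cell Ranger 8.0.1 per the file headers. The submitters' processing notes also name Seurat, and the genome build of the alignment is not given in the sources used here. One matrix holds all libraries, and its 4 barcode suffixes were used as sets. The 10 members, the gene lists and the markers were chosen with earlier results of these data known.

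The cell filter required 500 UMIs and 250 genes, allowed up to 25% of UMIs from mitochondrial genes and removed 567 barcodes. Scrublet, run per set in scanpy 1.11.5 with an expected doublet rate of 0.08, marked 3632 barcodes (9.12%), which were removed. That rate was chosen after its default had failed in some sets. Neighbours (15) and Leiden clusters (igraph 0.11.9) were computed without genes of the pathway lists or any gene whose symbol starts with H2-. To be named, a cluster needed at least 3 fixed markers at least 0.5 log2 units above the other cells. Each had to be detected in at least 25% of the cells of the cluster. A cluster stayed unnamed where another class led its top genes, where it held markers of another lineage, or where few UMIs came with no own marker on top. Counts were summed per class and set with numpy 2.4.6 and scipy 1.17.1, and exact Poisson and Clopper-Pearson 95% intervals were computed. The call rule used genes with at least 20 counts, and it was tested on simulated counts. The floor for a count of 0 was 3 counts over the group.

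Named genes were the 10 members, the 3 called genes with the most counts in each pathway list, and the 5 genes most like the members by Pearson correlation of log2(CPM + 10) among genes with at least 200 counts. One gene that this rule names is not reported here. Alternatives were the doublet filter, a stricter cell filter, classes by marker score, Leiden resolution 0.5, each set left out, other ratios and count minimums, hormone genes left out of library sizes, and thinning. Added after the data had been seen were the free RNA profile from unnamed barcodes below 1500 UMIs, the removal of cells holding markers of other cells, the comparison of the macrophage clusters and the motif GAANNGAAA.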

Additional observations from a re-analysis of the deposited data

How the results depend on the processing

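No paired analysis was possible for HFD against ND because the barcodes carry no label that ties a set to a library. The call rule did compare each class with the hormone classes within each set. With classes assigned by marker score per cell, the members called in B cell-like cells numbered 4 in place of 8 and in fibroblast-like cells 8 in place of 4, and the share of cells with a class II UMI was 31.3% in B cell-like, 82.7% in macrophage or microglia-like and 16.2% in hormone cells. The Psmb8 share was then 81.8% in T cell-like and 47.7% in somatotroph-like cells. With doublets kept, 7 members were called in fibroblast-like cells. The Psmb8 share was 82.7% in T cell-like, 77.5% in macrophage or microglia-like and 65.5% in endothelial-like cells. No cluster was named NK cell-like in that setting. T cell-like cells then had 2030 CPM of H2-K1 in place of 3292, 1670 CPM of B2m in place of 2646 and 320 CPM of Psmb8 in place of 566. Cd74 in endothelial-like cells was 142 CPM in place of 344 CPM. Fibroblast-like cells had 1 member called with hormone genes left out of the library sizes and 0 at a ratio of at least 4. Leaving out each set in turn gave 4 to 7 members called in fibroblast-like cells and class II shares of 83.2% to 88.0% in macrophage or microglia-like and 13.4% to 17.9% in hormone cells. The stricter cell filter gave class II shares of 88.3% in macrophage or microglia-like and 75.6% in stem-like cells. At 3 or more UMIs the shares were 74.97% in macrophage or microglia-like, 42.7% in stem-like, 14.4% in endothelial-like and 0.801% in hormone cells, and after thinning 78.4%, 30.8%, 20.4% and 2.44%. Without cells holding other markers they were 67.1% in stem-like, 32.5% in endothelial-like and 15.9% in hormone cells. The cause of these moves was not tested, apart from those that follow from counting fewer UMIs or other cells. Member levels moved by over 1.5 times in 35 of 88 cases with the marker score, 29 of 88 with free RNA subtracted, 22 of 78 with doublets kept and 0 of 88 with the stricter filter. Some orders between classes did change. With the marker score, T cell-like cells lost their lead in class I and supply genes, and B cell-like cells their distance in class II. Without hormone genes, H2-D1 in somatotroph-like cells moved from lowest to highest of the hormone classes. The T cell-like class II share passed that of hormone cells after thinning.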
